A study of Danio rerio with 16 samples.

Results

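The 8 vehicle libraries of the series were divided by replicate number, with replicates 3 and 4 of both genotype classes (4 libraries) set against replicates 1 and 2 of both classes (4 libraries), out of 16 libraries in all. The members are every library from larvae raised in DMSO vehicle, taken by their labels and replicate numbers and not by any measured value. They were chosen, however, with earlier results of these data known. Each library was made from poly(A) RNA of 1 pool of 8 zebrafish larvae (AB strain) at 5 days post fertilization (dpf), collected 3 h after lights on. VBA- larvae are homozygous for GR369-, a CRISPR-induced frameshift in exon 3 of nr3c1, the gene of the glucocorticoid receptor (GR), and were sorted at an earlier stage by their failure to adapt pigment to a light background. VBA+ pools held siblings of both other genotypes, wild type and heterozygous, from that cross. The other 8 libraries came from VBA- and VBA+ larvae raised in 1 uM cortisol. The pools of a condition came from a single dish and are repeated samples of it, so the p-values measure the spread between such pools. According to the methods the pools of a condition were taken one after another, a condition at a time, but whether the replicate numbers follow that order is not stated, nor is a batch or preparation day by replicate number, so that none of these can be told apart from the split itself.

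A larva of this age is at the end of yolk feeding. The liver already secretes plasma proteins, the exocrine pancreas makes digestive enzymes, the gut epithelium takes up lipids, peptides and amino acids, and cartilage and muscle are growing, while the retina and brain still add neurons from progenitors that carry Notch signals. Whole-larva RNA sums all of these tissues, and in such bulk samples fewer cells of a type and less RNA per cell cannot be told apart.

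Levels are log2(normalized count + 0.1). After quantile normalization all libraries carry identical values in a different gene order, and each sums to 14653434 normalized counts, so the sequencing depth is unknown and no counting error can be given. The top of the scale is also coarse. Only 110 ranks reach a level of 14, and the highest of them are tied in blocks. Ranks 1 to 10 share a level of 17.51, ranks 11 to 20 one of 16.89 and ranks 21 to 30 one of 16.13. Most neighbouring ranks there do not differ, and the steps between blocks reach 0.76. A difference is the mean of replicates 3 and 4 minus the mean of replicates 1 and 2 with genotype as a covariate, given with its SE. A gene was called in limma at a Benjamini-Hochberg adjusted p of at most 0.05, an absolute difference of at least 0.5, an SE under 1 and a mean of at least 75 normalized counts over the 16 libraries. Libraries of a vehicle group correlated with each other at 0.9344 to 0.9535. Some VBA- libraries stand apart or against their label. FKBP5, a direct GR target, was at 5.98 and 5.25 in VBA- replicates 3 and 4 and at 8.71 and 6.0 in VBA- replicates 1 and 2, so that VBA- replicate 1 lies in the range of the VBA+ libraries (8.42 to 8.99). NR3C1 itself was at 9.33 in VBA- replicate 3, inside the VBA+ range of 9.18 to 9.52, and VBA- replicate 4 lies far out on the first principal component.

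Of 21686 genes tested, 417 (1.92%) were higher and 188 (0.867%) lower in replicates 3 and 4 than in replicates 1 and 2. Of the 13772 genes with the mean that a call needs, these are 3.03% and 1.37%. The rises were larger than the falls: 119 called genes rose at least 2-fold and 4 fell that far, with median differences of 0.78 and -0.61 among the called. Both libraries of replicates 3 and 4 lay above both of replicates 1 and 2 within each genotype for 1846 genes (8.51%), called or not, and below them for 2111 genes (9.73%). The number of calls depends on the fit. It was 381 without VBA- replicate 1, 325 without VBA- replicate 2, 382 without VBA- replicate 4, 351 without VBA+ replicate 1, 282 without VBA+ replicate 3 and 363 without VBA- replicates 1 and 4 together, against 689 without VBA- replicate 3. On the same differences but other estimates of their error, 113 genes were called without the genotype term, 79 with a prior variance that does not follow the mean and 0 when all 16 libraries shared 1 estimate of the spread. That fit of 16 libraries held a shared split term for both genotypes in cortisol. There the differences of the genotypes ran against each other (r = -0.517), and this enters its error. In all 8 fits that left out 1 library, 170 of the rises and 35 of the falls kept their call, and these are called stable below. The word covers only those 8 fits, which share most of their libraries. No stable call held in the fit of 16 libraries. With the prior variance that does not follow the mean, some stable genes missed the limit of 0.05, among them f5, NYX and RRM2 (limma, adjusted p 0.0715, 0.0654 and 0.0782). Others met it, such as RPS23 (0.0497).

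**Figure D1:**
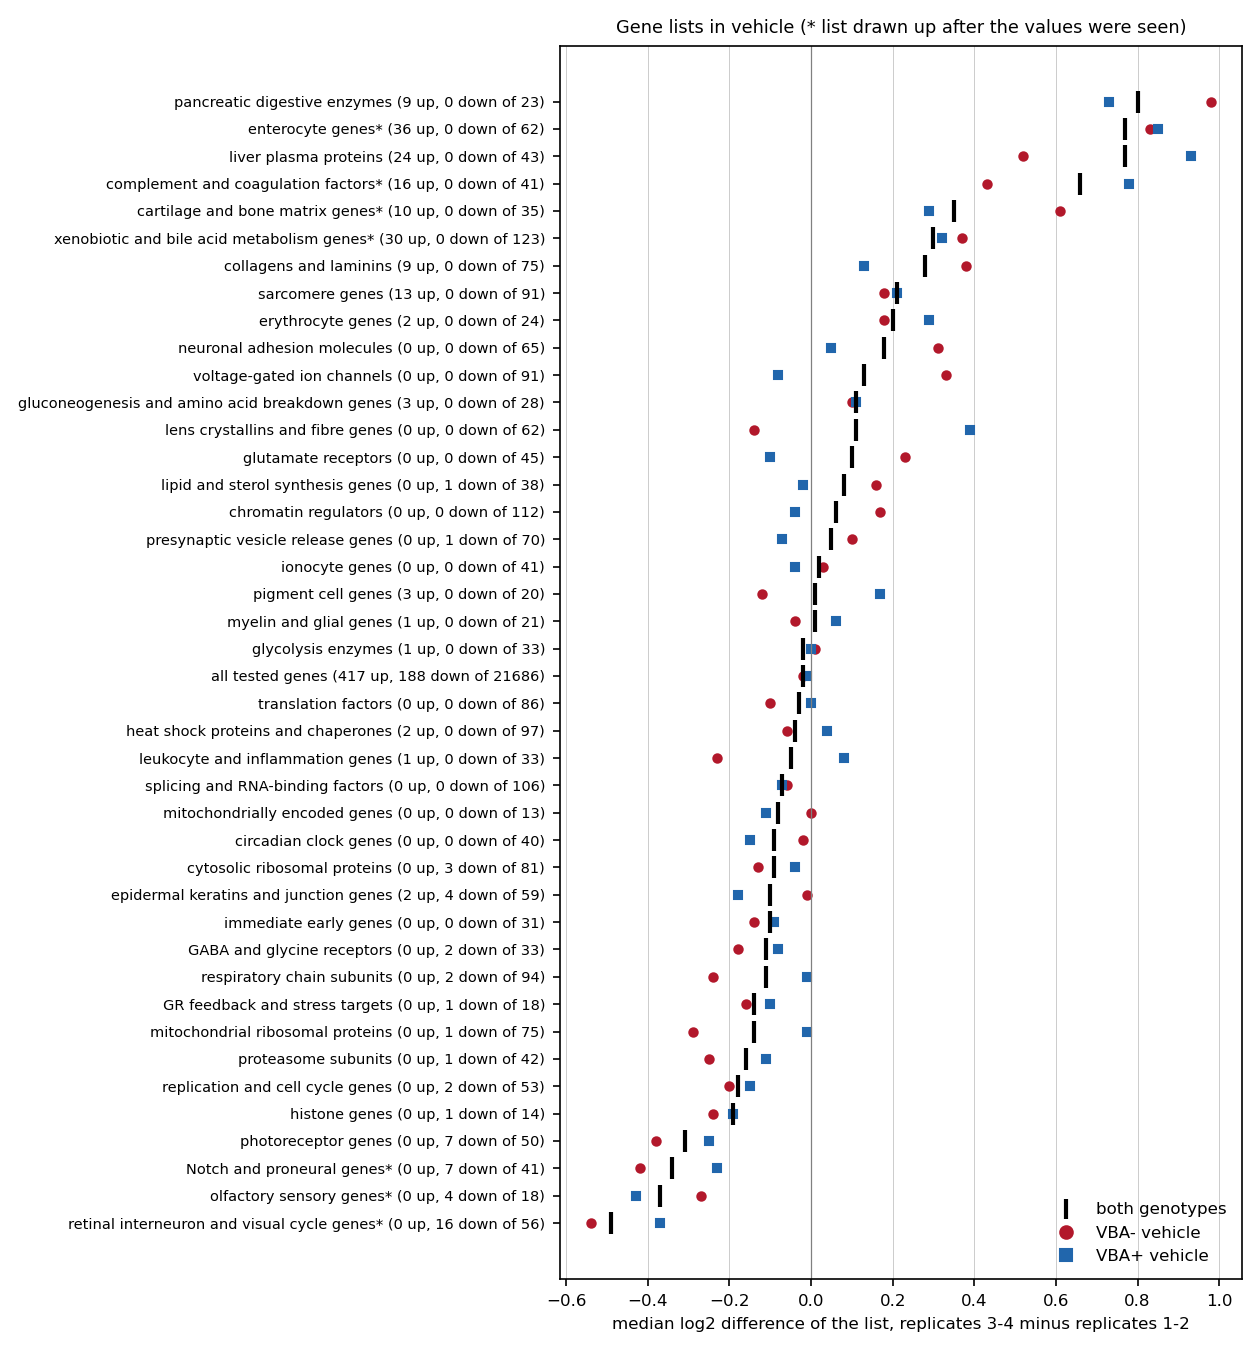
Median log2 difference (x axis, replicates 3 and 4 minus replicates 1 and 2 in vehicle) of each gene list (rows, with the number of called members and of members tested), for both genotypes together (bars), VBA- (circles) and VBA+ (squares). Digestive tract and liver lists lie at the top, with medians up to 0.80, and retinal, olfactory and Notch lists at the bottom, with medians down to -0.49, while the median over all tested genes is -0.02. Lists marked * were drawn up after the values had been seen, so their place only describes. They include the enterocyte, retinal interneuron, olfactory and Notch lists.

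Liver genes rose as a group. Of 43 tested genes of secreted plasma proteins, which hepatocytes make, 24 rose (55.8%, against 1.92% of all genes) and none fell, 42 had a positive difference, and the median difference was 0.77, against -0.02 over all genes tested. Of the 24 calls, 19 were stable. The mean level of the list was 11.08 and 11.52 in VBA- replicates 3 and 4 and 10.82 and 10.77 in VBA+ replicates 3 and 4, against 10.72 and 10.63 in VBA- replicates 1 and 2 and 9.83 and 10.00 in VBA+ replicates 1 and 2. Every library of replicates 3 and 4 thus lay above every library of replicates 1 and 2, with VBA- replicate 4 highest and VBA+ replicates 1 and 2 lowest. As a share of all normalized counts the list took 1.69%, 2.29%, 1.46% and 1.40% in replicates 3 and 4, against 1.47%, 1.42%, 0.898% and 0.994% in replicates 1 and 2 (VBA- pair first, then the VBA+ pair), and on this scale the groups overlap. The calls numbered 19 to 30 when any 1 library was left out.

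Some copies of the gene for the central complement protein led the liver list. The copy c3b.2 was at 9.86 and 10.57 in VBA- replicates 3 and 4 and 8.79 and 9.20 in VBA+ replicates 3 and 4, against 8.61 and 8.28 in VBA- replicates 1 and 2 and 7.19 and 7.52 in VBA+ replicates 1 and 2. It was higher within each genotype, and the VBA- libraries stood above the VBA+ libraries of the same replicates. The difference for c3b.2 was 1.71 ± 0.16 (SE; adjusted p 0.000921, limma). The copies c3b.1 and c3a.3 rose by 1.60 ± 0.26 and 1.42 ± 0.17 (adjusted p 0.00982 and 0.00326), with the caution that near-identical copies can share reads. PLG, plasminogen, the precursor of the enzyme that dissolves clots, rose by 1.33 ± 0.20 (adjusted p 0.0075). All 4 of these calls were stable. With a prior variance that does not follow the mean, c3b.2 kept its call (limma, adjusted p 0.0411). In that fit c3b.1, c3a.3 and PLG missed it (adjusted p 0.0742, 0.0504 and 0.0677).

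Among further lists of liver function, those of complement and coagulation and of xenobiotic and bile acid metabolism were drawn up after the values had been seen, so their counts only describe. Of 41 complement and coagulation genes 16 rose (39%, against 1.92% of all genes) and none fell, with a median of 0.66. Among them f5, a coagulation cofactor, rose by 1.17 ± 0.19 (adjusted p 0.00982) and was stable. PROC, an anticoagulant protease, serping1, an inhibitor of complement proteases, and cfh, a complement regulator, rose by 1.32, 1.14 and 1.11 (adjusted p 0.0183, 0.0149 and 0.0167), and each lost its call without VBA+ replicate 3. Without that library 6 of the 16 calls remained in number. Of 123 genes of xenobiotic and bile acid metabolism 30 rose (24.4%), with a median of 0.30, and 16 were stable. Without VBA+ replicate 3 the count was 18. The cytochrome P450 gene cyp2n13 had the smallest adjusted p of all genes. It was at 11.47 and 11.58 in VBA- replicates 3 and 4 and 11.26 and 11.05 in VBA+ replicates 3 and 4, against 10.25 and 10.33 in VBA- replicates 1 and 2 and 9.63 and 9.92 in VBA+ replicates 1 and 2. Replicates 1 and 2 stayed below all of replicates 3 and 4, and the difference was 1.31 ± 0.09 (adjusted p 0.000169). ABCB4 and abcb11a, both ABC transporter genes, rose by 1.27 ± 0.15 and 1.23 ± 0.19 (adjusted p 0.00317 and 0.00849). Of 28 genes of gluconeogenesis and amino acid breakdown, 3 rose (10.7%, against 1.92% of all genes), with a median of 0.11. The stable one was fbp1b, a fructose bisphosphatase, at 0.79 ± 0.11 (adjusted p 0.00465). The calls of g6pc1a.1, which releases glucose, and of hpda, of tyrosine breakdown, held in only 2 of the 8 fits without 1 library.

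Genes of the gut epithelium rose too, on a list drawn up after the values had been seen, so that its counts only describe. Of 62 enterocyte genes 36 rose (58.1%, against 1.92% of all genes) and none fell. A positive difference was found in 58, the median was 0.77, and 24 of the calls were stable. The mean level was 8.05 and 8.42 in VBA- replicates 3 and 4 and 7.96 and 7.83 in VBA+ replicates 3 and 4, against 7.37 and 7.40 in VBA- replicates 1 and 2 and 7.09 and 7.06 in VBA+ replicates 1 and 2, with no overlap. SLC15A1, the transporter of small peptides from the gut lumen, was at 9.43 and 10.08 in VBA- replicates 3 and 4 and 9.29 and 9.14 in VBA+ replicates 3 and 4, against 7.91 and 8.03 in VBA- replicates 1 and 2 and 7.60 and 7.66 in VBA+ replicates 1 and 2. All 4 libraries of replicates 3 and 4 exceeded all of replicates 1 and 2 by more than a log2 unit. The difference was 1.69 ± 0.13, a 3.22-fold higher level (adjusted p 0.00043). SLC6A19, a transporter of neutral amino acids, rose by 1.75 ± 0.18 (adjusted p 0.00109). NPC1L1, through which cholesterol is absorbed, was at 7.11 and 8.16 in VBA- replicates 3 and 4 and 7.21 and 6.41 in VBA+ replicates 3 and 4, against 5.89 and 5.53 in VBA- replicates 1 and 2 and 4.91 and 4.86 in VBA+ replicates 1 and 2. This is a rise of 1.93 ± 0.24 (adjusted p 0.00368), and DGAT2, the last step of triglyceride synthesis, rose by 1.83 ± 0.27 (adjusted p 0.00654).

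Digestive enzymes of the exocrine pancreas rose too, on fewer and less even calls. Of 23 tested genes 9 rose (39.1%, against 1.92% of all genes) and none fell. A positive difference was found in 22, against 10248 of 21686 over all genes, and the median was 0.80. The list stood at 9.58 and 8.70 in VBA- replicates 3 and 4 and 9.71 and 9.25 in VBA+ replicates 3 and 4, against 8.09 and 8.41 in VBA- replicates 1 and 2 and 8.82 and 8.60 in VBA+ replicates 1 and 2. Within each genotype the groups were apart, but VBA- replicate 4 lay below VBA+ replicate 1. In both genotypes replicate 4 was nearer than replicate 3 to the libraries of replicates 1 and 2. Only 2 calls were stable, and the count fell to 5 without VBA- replicate 1 or VBA+ replicate 2 and to 2 without VBA+ replicate 3. CPA1 (ENSDARG00000021339), a carboxypeptidase, was at 12.18 and 11.53 in VBA- replicates 3 and 4 and 12.73 and 11.66 in VBA+ replicates 3 and 4, against 9.51 and 9.94 in VBA- replicates 1 and 2 and 10.91 and 10.05 in VBA+ replicates 1 and 2. It rose by 1.92 ± 0.26 (adjusted p 0.00447), and its call was stable. Another gene under the symbol CPA1 (ENSDARG00000030915), CEL, a lipase activated by bile salts, and ctrl, a chymotrypsin-like protease, rose by 1.39, 1.63 and 1.48 (adjusted p 0.0161, 0.0147 and 0.0183), and each lost its call without VBA+ replicate 3.

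**Figure D2:**
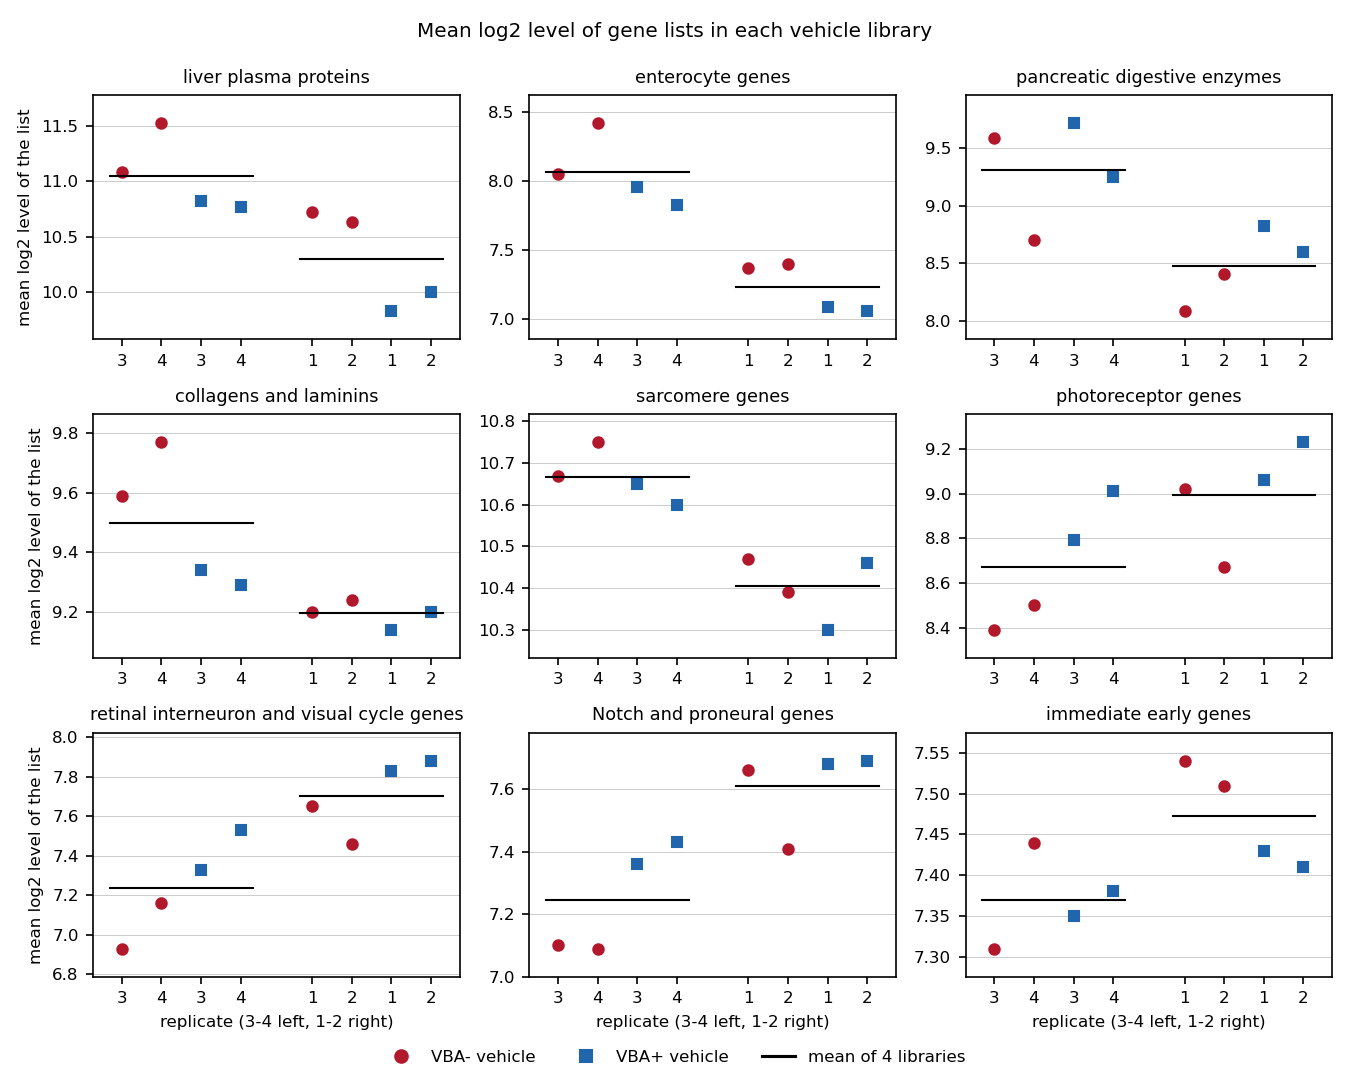
Mean log2 level (y axis) of 9 gene lists in each vehicle library, with replicates 3 and 4 on the left and replicates 1 and 2 on the right of each panel; circles are VBA-, squares VBA+, and lines the mean of 4 libraries. Liver, gut and sarcomere lists are higher in all 4 libraries of replicates 3 and 4, from 10.77 for the liver list in VBA+ replicate 4, while the photoreceptor list overlaps between the groups.

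Matrix and muscle genes rose in part. Of 75 collagen, laminin and related genes 9 rose (12%, against 1.92% of all genes) and none fell, with a median of 0.28. The list was at 9.59 and 9.77 in VBA- replicates 3 and 4 and 9.34 and 9.29 in VBA+ replicates 3 and 4, against 9.20 and 9.24 in VBA- replicates 1 and 2 and 9.14 and 9.20 in VBA+ replicates 1 and 2, so that most of the distance lay in VBA- (median 0.38, against 0.13 in VBA+, a difference that was not tested). As a share of all normalized counts the list took 1.83% and 2.01% in VBA- replicates 3 and 4, against 1.27% and 1.35% in VBA- replicates 1 and 2. In VBA+ the shares overlapped, at 1.29% and 1.23% in replicates 3 and 4 and 1.24% and 1.26% in replicates 1 and 2. FN1, fibronectin, carried the 1 stable call: it was at 12.04 and 12.48 in VBA- replicates 3 and 4 and 11.23 and 11.33 in VBA+ replicates 3 and 4, against 10.83 and 11.23 in VBA- replicates 1 and 2 and 10.02 and 10.45 in VBA+ replicates 1 and 2. The difference was 1.14 ± 0.13 (adjusted p 0.00259). COL10A1, of hypertrophic cartilage and bone, col6a4b and COL8A2 rose by 1.14, 1.10 and 0.75 (adjusted p 0.0375, 0.0242 and 0.0309) with calls that held in 2 or 3 of the 8 fits without 1 library. The count of calls fell to 3 without VBA- replicate 1 or VBA- replicate 4, 2 without VBA- replicate 2, 4 without VBA+ replicate 1 and 5 without VBA+ replicate 3. Of 35 cartilage and bone matrix genes, a list drawn up later, 10 rose (28.6%, against 1.92% of all genes) with a median of 0.35. The count was 3 or 4 without any 1 of VBA- replicates 1, 2 and 4 and VBA+ replicates 1, 3 and 4. MIA, a secreted cartilage protein, was stable at 0.95 ± 0.14 (adjusted p 0.00602), whereas acanb, an aggrecan of the cartilage matrix, and prg4b, a joint lubricant, rose by 1.19 and 0.89 (adjusted p 0.0306 and 0.0372) on calls that held in 1 and 2 of those fits.

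Of 91 sarcomere genes 13 rose (14.3%, against 1.92% of all genes) and none fell, with a median of 0.21 and 5 stable calls. The count was 7 without VBA- replicate 2 and 8 without VBA+ replicate 1. The list took 9.22%, 8.46%, 10.4% and 10.3% of all normalized counts in replicates 3 and 4, against 9.02%, 7.70%, 9.14% and 9.70% in replicates 1 and 2, in the order used for the liver list, and these shares overlap. TNNI2 (ENSDARG00000045592), an inhibitory troponin of fast muscle, was at 9.31 and 9.36 in VBA- replicates 3 and 4 and 8.16 and 8.79 in VBA+ replicates 3 and 4, against 7.88 and 7.97 in VBA- replicates 1 and 2 and 6.73 and 6.96 in VBA+ replicates 1 and 2. Each of replicates 3 and 4 lay above each of replicates 1 and 2, by 1.52 ± 0.14 in the fit (adjusted p 0.000888). The myosin heavy chain gene myhz1.1l rose by 1.35 ± 0.20 and the tropomyosin gene TPM4 by 0.98 ± 0.12 (adjusted p 0.00705 and 0.00326). NEB, the giant ruler of the thin filament, rose by 1.3 ± 0.29 (adjusted p 0.0316), but at levels of 13.09 to 15.54 it moved in coarse rank steps and held its call in 3 of the 8 fits without 1 library. Of 24 erythrocyte genes, with a median of 0.20, 2 rose (8.33%, against 1.92% of all genes). SPTB, a spectrin of the red cell membrane, rose by 0.81 ± 0.15 and hbae3, an embryonic globin, by 0.64 ± 0.10 (adjusted p 0.0151 and 0.00982). The call of hbae3 was stable, and that of SPTB was lost without VBA+ replicate 1.

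**Figure D3:**
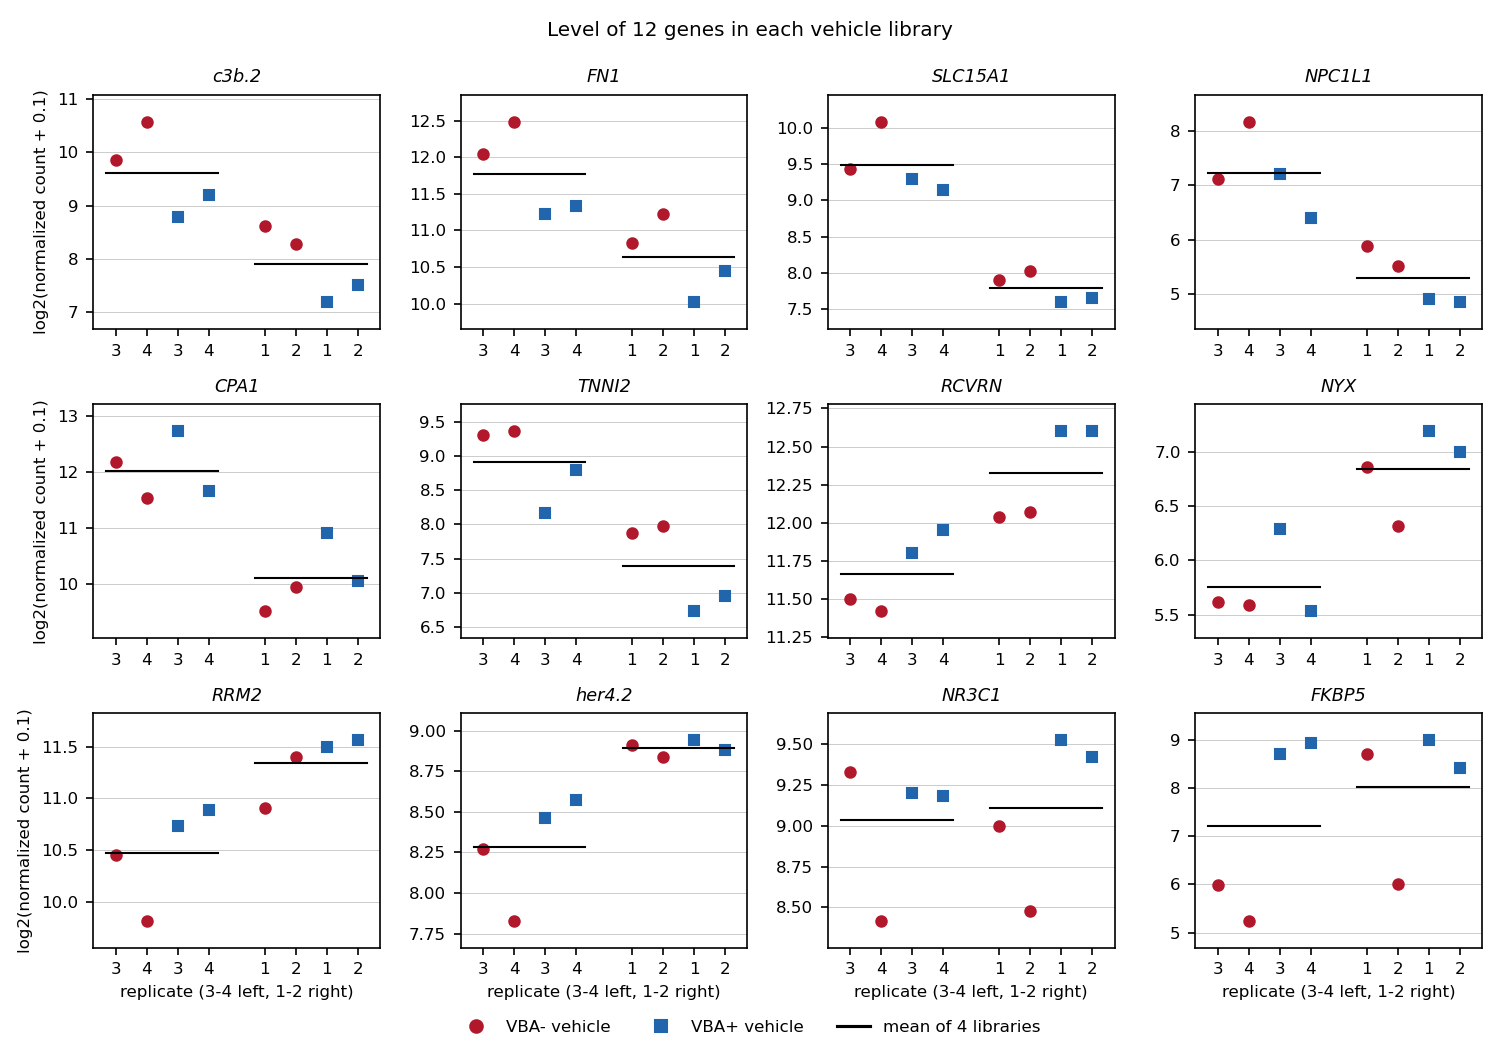
Level of 12 genes, log2(normalized count + 0.1) (y axis), in each vehicle library, with replicates 3 and 4 on the left and replicates 1 and 2 on the right of each panel; circles are VBA-, squares VBA+, and lines the mean of 4 libraries. SLC15A1 shows no overlap between replicates 3 and 4 (9.14 to 10.08) and replicates 1 and 2 (7.60 to 8.03), whereas FKBP5 and NR3C1 overlap.

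The 10 largest rises among called genes whose libraries are apart within each genotype include 4 gene IDs without a symbol. ENSDARG00000104569 was at 6.88 and 8.06 in VBA- replicates 3 and 4 and 6.56 and 6.07 in VBA+ replicates 3 and 4, against 4.86 and 4.01 in VBA- replicates 1 and 2 and 4.26 and 2.83 in VBA+ replicates 1 and 2, a difference of 2.90 ± 0.36 (adjusted p 0.00348). ENSDARG00000077872 rose by 2.25 ± 0.16 (adjusted p 0.000281). Beside the genes already given, vwa11, alp3 and cyp2x8, a cytochrome P450 gene, rose by 2.20, 1.88 and 1.76 (adjusted p 0.00365, 0.00326 and 0.00401). Of these 10 rises all but 1 were stable, the exception being an ID without a symbol that held in 2 of the 8 fits. The mean that a call needs was taken over all 16 libraries, cortisol included, so genes with low counts in vehicle could pass. In vehicle replicates 1 and 2, vwa11 was at 9 to 30 normalized counts, alp3 at 18 to 33 and cyp2x8 at 18 to 40. ENSDARG00000104569 was at 7 to 29 there, and ENSDARG00000112287, the exception, at 7 to 11. Among the remaining rises NPC1L1 was lowest there, at 29 to 59.

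The called falls were led by single genes of different kinds. The largest was pfn1, profilin, which binds actin: 14.04 and 14.69 in VBA- replicates 3 and 4 and 13.48 and 13.39 in VBA+ replicates 3 and 4, against 16.13 and 16.13 in VBA- replicates 1 and 2 and 14.52 and 14.32 in VBA+ replicates 1 and 2. It fell by 1.37 ± 0.17 (adjusted p 0.00326) and was stable, at a level where values move by rank steps. AVEN, an inhibitor of apoptosis, was at 7.87 and 7.71 in VBA- replicates 3 and 4 and 8.11 and 7.99 in VBA+ replicates 3 and 4, against 8.68 and 8.68 in VBA- replicates 1 and 2 and 9.05 and 8.92 in VBA+ replicates 1 and 2. All 4 libraries of replicates 3 and 4 lay below the others, by 0.91 ± 0.09 in the fit (adjusted p 0.000888). The protocadherin gene pcdh8 fell by 1.12 ± 0.16 and lye, of the epidermis, fell by 0.88 ± 0.09 (adjusted p 0.00537 and 0.00109), both stable. GGACT, of glutamyl peptide breakdown, fell by 1.33 ± 0.31 (adjusted p 0.0353) but held its call in 2 of the 8 fits. The remaining members of the 10 largest falls were RRM2, the retinal genes NYX and pax10, and 2 genes under clone names at -0.87 and -0.85.

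Genes of the retina fell. Of 50 photoreceptor genes 7 fell (14.0%, against 0.867% of all genes) and none rose, 47 had a negative difference and the median was -0.31. The list was at 8.39 and 8.5 in VBA- replicates 3 and 4 and 8.79 and 9.01 in VBA+ replicates 3 and 4, against 9.02 and 8.67 in VBA- replicates 1 and 2 and 9.06 and 9.23 in VBA+ replicates 1 and 2. The groups were apart within each genotype but overlapped between genotypes, VBA- lying lower in both. RCVRN, recoverin, a calcium sensor of rods and cones, was at 11.50 and 11.42 in VBA- replicates 3 and 4 and 11.80 and 11.95 in VBA+ replicates 3 and 4, against 12.04 and 12.07 in VBA- replicates 1 and 2 and 12.60 and 12.60 in VBA+ replicates 1 and 2. It fell by 0.66 ± 0.06 (adjusted p 0.000888). PDE6B, the phosphodiesterase subunit of the light cascade, fell by 0.76 ± 0.11 (adjusted p 0.00654), and these 2 calls were stable. The cyclase activator guca1c fell by 0.66 and the red opsin gene opn1lw2 fell by 0.54 (adjusted p 0.0418 and 0.0111), the last losing its call without VBA+ replicate 3 alone. The count of calls was 3 without VBA- replicate 1, 4 without VBA- replicate 3 or VBA+ replicate 2, and 2 without VBA+ replicate 3.

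Of 56 genes of retinal interneurons and of the visual cycle, again a list drawn up later, 16 fell (28.6%, against 0.867% of all genes) and none rose. The median was -0.49, the lowest of all lists, but that place only describes, since the list was drawn up with the values known. NYX, nyctalopin, of retinal bipolar cells, was at 5.62 and 5.59 in VBA- replicates 3 and 4 and 6.29 and 5.53 in VBA+ replicates 3 and 4, against 6.86 and 6.32 in VBA- replicates 1 and 2 and 7.19 and 7.0 in VBA+ replicates 1 and 2. It fell by 1.09 ± 0.19 (adjusted p 0.0143), the only stable call of the list. The opsin gene opn9 fell by 0.74, pax10 by 0.90 and NXNL2, a thioredoxin-like protein of photoreceptors, by 0.77 (adjusted p 0.0221, 0.0199 and 0.0334). The count was 1 without VBA- replicate 1, 9 without VBA- replicate 2, 10 without VBA- replicate 4 or VBA+ replicate 2, 6 without VBA+ replicate 1 and 5 without VBA+ replicate 3, while the median of the list stayed between -0.53 and -0.38 in these fits and those without the other 2. None of 62 lens genes was called (9 at an unadjusted p under 0.05), with a median of 0.11 and a mean level of 9.74 in VBA- replicate 1, against 8.89 to 9.51 in the other vehicle libraries. GABRR2 and GABRR1, GABA receptor subunits known from the retina, were the 2 called genes among 33 receptors for inhibitory transmitters. They fell by 0.64 ± 0.11 and 0.58 ± 0.14 (adjusted p 0.0102 and 0.0455), the first with a stable call and the second with a call in none of the 8 fits.

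Other sensory and progenitor genes fell as well, the olfactory and the Notch lists being drawn up later. Of 18 olfactory genes 4 fell (22.2%, against 0.867% of all genes), with a median of -0.37. Among them S100Z, a calcium-binding protein of olfactory neurons, fell by 0.73 ± 0.12 and pvalb5, a parvalbumin, by 0.65 ± 0.10 (adjusted p 0.0115 and 0.00822), both stable. OMP, the marker protein of mature olfactory neurons, fell by 0.83 and gng8, their G protein subunit, fell by 0.67 (adjusted p 0.0273 and 0.0418); both lost the call without any 1 of the 4 VBA- libraries or VBA+ replicate 3, and the count was then 2. Of 41 Notch and proneural genes 7 fell (17.1%) and none rose, with a median of -0.34 and no stable call. The Notch targets her4.5 and her4.2 fell by 0.78 and 0.61 and the proneural gene ascl1b by 0.68 (adjusted p 0.0202, 0.021 and 0.0149). For ascl1b the levels were 7.86 and 7.73 in VBA- replicates 3 and 4 and 8.08 and 8.27 in VBA+ replicates 3 and 4, against 8.86 and 8.5 in VBA- replicates 1 and 2 and 8.74 and 8.56 in VBA+ replicates 1 and 2, with no overlap. FEZF2, a regulator of forebrain neurons, fell by 0.74 (adjusted p 0.03). The count of this list was 1 without VBA- replicate 1, 4 without VBA- replicate 2 or VBA- replicate 4, 3 without VBA+ replicate 1 and 0 without VBA+ replicate 3. Of 53 replication and cell cycle genes 2 fell (3.77%), with a median of -0.18 and 45 negative differences. RRM2, which supplies deoxynucleotides for DNA synthesis, fell by 0.87 ± 0.15 (adjusted p 0.0108, stable) and POLE4, a polymerase subunit, fell by 0.65 (adjusted p 0.02). Among 14 histone genes 1 fell (7.14%, against 0.867% of all genes). It was h3f3a, of a replacement histone, at -0.51 ± 0.07 (adjusted p 0.0055), near the limit of 0.5. The calls of POLE4 and h3f3a each held in 5 of the 8 fits without 1 library.

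Lists of protein synthesis and energy metabolism held few calls, with medians just below 0 and mostly negative differences. Of 81 cytosolic ribosomal protein genes 3 fell and none rose, with a median of -0.09: RPL11 and RPS23 fell by 0.81 ± 0.09 and 0.68 ± 0.07 (adjusted p 0.00214 and 0.00176), both stable, and RPL36 fell by 0.51 (adjusted p 0.016). RPS23 was at 13.03 and 12.87 in VBA- replicates 3 and 4 and 13.03 and 13.23 in VBA+ replicates 3 and 4, against 13.67 and 13.78 in both VBA- and VBA+ replicates 1 and 2. Of 94 nuclear subunits of the respiratory chain 2 fell, atp5mea by 0.64 and ndufa5 by 0.51 (adjusted p 0.0202 and 0.0203), with a list median of -0.11; of 75 mitochondrial ribosomal proteins MRPS10 fell by 0.53 (adjusted p 0.0343), and of 42 proteasome subunits PSMD10 fell by 0.54 (adjusted p 0.0373), with medians of -0.14 and -0.16. None of these 4 calls was stable. The falls made up 3.7% of the cytosolic ribosomal list and 2.13% of the respiratory chain list. They made up 1.33% of the mitochondrial ribosomal list and 2.38% of the proteasome list, against 0.867% of all genes. Negative differences numbered 73 of 94 for the respiratory chain, 65 of 75 for the mitochondrial ribosome and 38 of 42 for the proteasome, against 11438 of 21686 over all genes. Their medians were -0.24, -0.29 and -0.25 in VBA- and -0.01, -0.01 and -0.11 in VBA+, and this difference between the genotypes was not tested. No call fell on 86 translation factors or on 13 mitochondrially encoded genes (15 and 2 of them at an unadjusted p under 0.05). The most abundant translation factors, eef1a1l1 and eef2b, were at the tied levels of 17.51 and 16.13 in every vehicle library. Of 33 glycolytic genes 1 rose (3.03%, near the 1.92% of all genes), PKLR, the pyruvate kinase of liver and red cells, by 0.55 ± 0.11 (adjusted p 0.0224). That call held in 3 of the 8 fits without 1 library.

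Skin and pigment genes went both ways. Of 59 epidermal genes 4 fell (6.78%, against 0.867% of all genes) and 2 rose (3.39%, against 1.92%). The falls were TGM1, a transglutaminase, by 0.78, agr1 by 0.67, cldn1, a tight junction protein, by 0.56 and icn2 by 0.54 (adjusted p 0.0325, 0.0361, 0.0294 and 0.0242). The rises were krt18a.2 by 0.77 and krt92 by 0.52 ± 0.06 (adjusted p 0.0254 and 0.00259). None of these calls was stable. Of 20 pigment cell genes 3 rose (15%). They were csf1ra, the receptor of xanthophores and macrophages, by 0.66 ± 0.10 (adjusted p 0.00791, stable) and pnp4b and XDH, of the purine and pteridine pathways of pigment, by 0.88 and 0.65 (adjusted p 0.0248 and 0.0273). No ionocyte gene of 41 was called (9 at an unadjusted p under 0.05), and atp1a1a.4, a sodium pump subunit of these cells, had a difference of 0.44 ± 0.10 that missed the size limit (adjusted p 0.0351). Among 33 leukocyte genes, 11 of them with the mean that a call needs, csf1ra was likewise the only call. The desaturase gene scdb fell by 0.65 ± 0.10 (adjusted p 0.00749, stable), the only call among 38 genes of lipid and sterol synthesis.

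Neuronal and regulatory lists held few calls. Of 45 glutamate receptor genes, 91 voltage-gated channel genes, 65 neuronal adhesion genes, 112 chromatin regulators, 106 splicing factors and 40 clock genes none was called in limma (3, 17, 15, 10, 25 and 9 of them at an unadjusted p under 0.05). In the same order, 31, 42, 52, 107, 99 and 33 genes had the mean that a call needs. Over all genes 1.92% rose and 0.867% fell, and at that share lists of this size would hold few calls. The medians of these lists lay between -0.09 for the clock genes and 0.18 for the adhesion genes. Positive differences numbered 30, 55, 54, 78, 35 and 12 in the same order, against 10248 of 21686 over all genes. Of 21 myelin and glial genes 1 rose, SLC1A3, a glutamate transporter of astroglia, by 0.57 ± 0.10 (adjusted p 0.016), a call lost without VBA+ replicate 3. The channel and adhesion medians were 0.33 and 0.31 in VBA- and -0.08 and 0.05 in VBA+. Among 31 immediate early genes, which are transcribed within minutes of activity or stress, none was called (5 at an unadjusted p under 0.05), with a median of -0.10. The mean that a call needs was reached by 24 of them, and 25 had a negative difference. The list took 0.0776% to 0.0805% of all normalized counts in replicates 3 and 4 and 0.0845% to 0.091% in replicates 1 and 2, without overlap. Its mean log2 levels did overlap, with VBA- replicate 4 at 7.44 and VBA+ replicates 1 and 2 at 7.43 and 7.41. FOS (ENSDARG00000031683) had a difference of 0.25 ± 0.24 (adjusted p 0.575), egr1 of -0.09 ± 0.11, egr4 of -0.06 ± 0.23, NPAS4 of -0.06 ± 0.21 and ier2b of -0.27 ± 0.11 (adjusted p 0.69, 0.915, 0.899 and 0.198). Of 97 chaperone genes 2 rose, a share near the 1.92% of all genes, with a median of -0.04. HSPA8, the constitutive cytosolic chaperone, was at 16.89 in all 4 libraries of replicates 3 and 4, against 15.54 and 15.54 in VBA- replicates 1 and 2 and 16.89 and 16.13 in VBA+ replicates 1 and 2. Those are 3 neighbouring rank steps, and the call (0.87 ± 0.20, adjusted p 0.0333) held in 1 of the 8 fits, while HSPB7, a small heat shock protein of muscle, rose by 0.59 on a call that held in none.

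Neither the receptor gene nor FKBP5 and KLF9 were called, and the list of GR targets held 1 call, which was not stable. NR3C1 was at 9.33 and 8.42 in VBA- replicates 3 and 4 and 9.20 and 9.18 in VBA+ replicates 3 and 4, against 9.0 and 8.48 in VBA- replicates 1 and 2 and 9.52 and 9.42 in VBA+ replicates 1 and 2. The groups overlap, with a difference of -0.07 ± 0.19 (adjusted p 0.867). FKBP5 had a difference of -0.81 ± 0.54 (adjusted p 0.413), with VBA- replicate 1 against its label as given above. KLF9 was at -0.23 ± 0.15, NR3C2, the mineralocorticoid receptor, at 0.14 ± 0.22, and the copies of PER1 (ENSDARG00000012499 and ENSDARG00000056885) at -0.002 ± 0.066 and 0.03 ± 0.11 in difference (adjusted p 0.395, 0.762, 0.99 and 0.903). DDIT4, a stress-induced inhibitor of growth signalling, was the 1 called gene among 18 feedback and stress targets of the GR. This is 5.56%, against 0.867% of all genes that fell. DDIT4 fell by 0.51 ± 0.10 (adjusted p 0.0199, limma), near the limit of 0.5, on a call that held in 3 of the 8 fits. The abundant genes eif5a and actb2 had differences of 0.15 ± 0.05 and 0.00 (adjusted p 0.124 and 1).

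**Figure D4:**
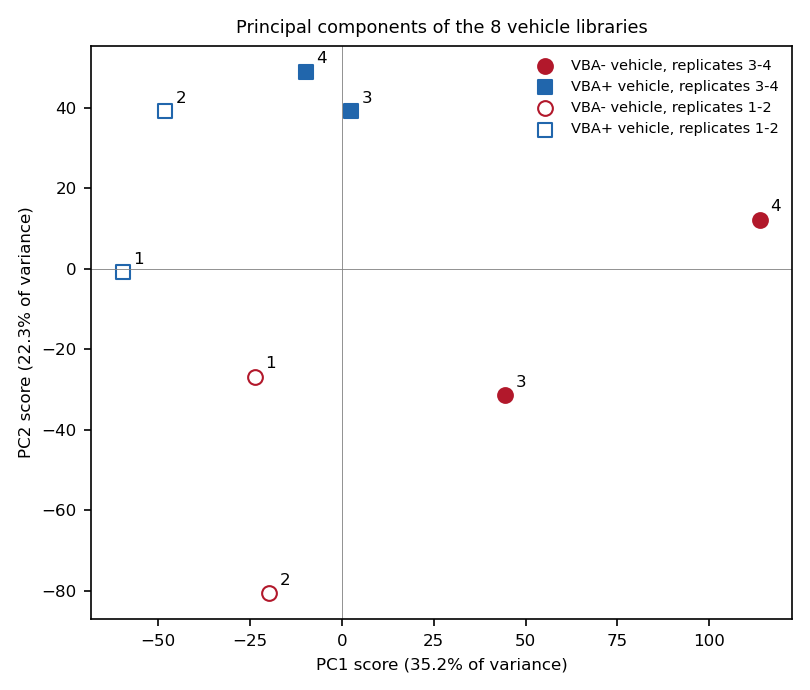
Scores of the 8 vehicle libraries on PC1 (x axis, 35.2% of the variance) and PC2 (y axis, 22.3%), with filled symbols for replicates 3 and 4, open symbols for replicates 1 and 2, circles for VBA-, squares for VBA+ and replicate numbers beside the points. Replicates 3 and 4 lie to the right of replicates 1 and 2, with VBA- replicate 4 at 113.8.

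Over the 8876 genes with a mean log2 level of at least 7.5, the first principal component took 35.2% of the variance. Its scores were 44.4 and 113.8 in VBA- replicates 3 and 4 and 2.6 and -9.8 in VBA+ replicates 3 and 4, against -23.7 and -19.7 in VBA- replicates 1 and 2 and -59.5 and -48.1 in VBA+ replicates 1 and 2. Replicates 3 and 4 lay above replicates 1 and 2 by a gap of 9.9, and this order was lost without VBA- replicate 4 (gap of -102.4). The second component, 22.3%, followed the genotype in part, with VBA- between -80.6 and 12.2 and VBA+ between -0.8 and 49.0. Of the summed squares of 13752 genes with a mean of at least 75 (leaving out 20 that were at the same value in all 8 vehicle libraries), the split of the replicates took 31.5% and the genotype 27.2%, and the split took the larger part in 7114 genes (51.7%). The log2 levels were not scaled here, so genes with a large spread weigh most. Any split of 8 libraries takes some share without an effect, and that part was not subtracted.

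Taken separately, the split gave 169 calls in VBA- (0.779% of genes; 107 higher) and 149 in VBA+ (0.687%; 133 higher), of which 42 were shared, which is 24.9% of the VBA- calls and 28.2% of the VBA+ calls. The differences of all tested genes in VBA- and in VBA+ correlated at r = 0.277 across genes, which are not independent points. These single-genotype counts rest on pairs of libraries and moved widely: VBA- gave 7 calls without VBA- replicate 1, 10 without VBA- replicate 2, 27 without VBA- replicate 4 and 20 to 39 without any VBA+ library, but 1008 without VBA- replicate 3, and VBA+ gave 62 or 58 without VBA- replicate 1 or 2 and 4 to 21 without any 1 of its own 4 libraries. A test of the difference between genotypes called 2 genes (0.00922%), both near the top of the scale. The collagen gene col1a1a was at 15.54 in both VBA- replicates 3 and 4, against 14.15 and 14.32 in VBA- replicates 1 and 2, and at 14.15 in all 4 VBA+ libraries. ACTA1, the skeletal muscle actin, was at 14.15 in both VBA- replicates 3 and 4, against 14.32 and 14.15 in VBA- replicates 1 and 2, and at 15.54 in both VBA+ replicates 3 and 4, against 14.32 in both VBA+ replicates 1 and 2. The split differed between VBA- and VBA+ by 1.31 ± 0.11 for col1a1a and -1.31 ± 0.11 for ACTA1 (adjusted p 0.00854 each). In both genes each replicate pair of a genotype sits on the same rank value, except VBA- replicates 1 and 2, at 14.15 and 14.32 or the reverse. This leaves almost no spread for the test. The test called 0 genes without any 1 of the VBA+ libraries and 9 without VBA- replicate 3.

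**Figure D5:**
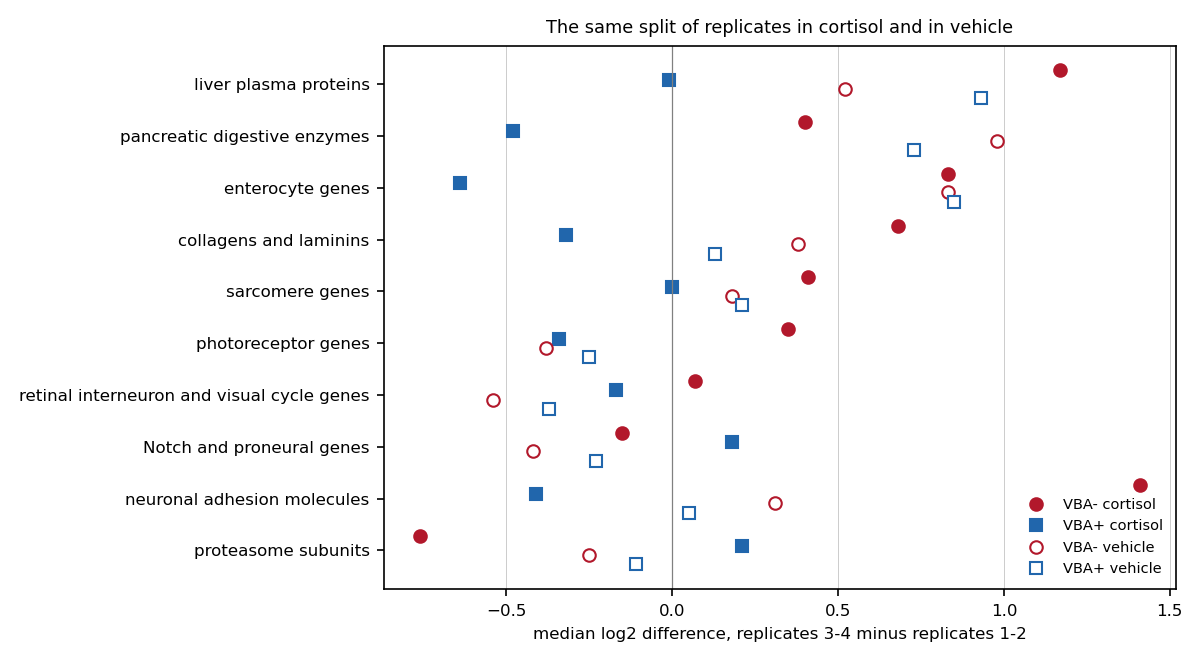
Median log2 difference (x axis, replicates 3 and 4 minus replicates 1 and 2) of 10 gene lists (rows) in VBA- cortisol and VBA+ cortisol (filled) and in VBA- vehicle and VBA+ vehicle (open). The liver list lies at 1.17 and -0.01 in VBA- and VBA+ cortisol and at 0.52 and 0.93 in VBA- and VBA+ vehicle, and the adhesion list at 1.41 and -0.41 in cortisol and 0.31 and 0.05 in vehicle.

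The cortisol libraries, which share no library with the comparison above, were split in the same way. With both genotypes together no gene was called in limma (674 genes at an unadjusted p under 0.05, smallest adjusted p 0.865). None was called in limma for the difference between cortisol and vehicle (0%, with 1179 at an unadjusted p under 0.05, smallest adjusted p 0.734). In these tests the genotypes of a treatment shared a split term, so differences that run against each other cancel and enter the error. They therefore cannot show that the split was alike in cortisol and vehicle. Within a genotype, a contrast chosen after seeing the data, 6076 genes were called in VBA- cortisol and 639 in VBA+ cortisol, with differences that ran against each other across genes (r = -0.517). Of the 417 genes that rose in vehicle, 401 had a positive difference in VBA- cortisol, where 10430 of 21686 tested genes did, and 60 had one in VBA+ cortisol, where 11394 did. Of the 188 that fell, 170 were negative in VBA- cortisol (11255 of all) and 36 in VBA+ cortisol (10292 of all). The vehicle and cortisol differences correlated at 0.437 in VBA- and at -0.19 in VBA+. Thus the liver list had a median of 1.17 in VBA- cortisol and -0.01 in VBA+ cortisol, the enterocyte list 0.83 and -0.64 and the pancreatic list 0.40 and -0.48, while the photoreceptor list, which fell in both vehicle groups, had 0.35 and -0.34. SLC15A1 had a difference of 0.35 in cortisol over both genotypes and TNNI2 of 0.36, against 1.69 and 1.52 in vehicle. In VBA- cortisol the largest medians belonged to neuronal lists (1.41 for adhesion genes, 1.17 for channels, equal to the liver list), which had few or no calls in vehicle.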

How the data were processed

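RNA-seq was analysed for 16 pools of zebrafish larvae, of which the 8 vehicle libraries carry the comparison. According to the labels and methods, the authors trimmed reads with Trimmomatic, aligned them with STAR 2.6.1b to GRCz11, estimated expression per gene with RSEM 1.3.0 and normalized with EDASeq for GC content within and full quantiles between libraries. The deposited values are log2(normalized count + 0.1) for 22994 genes, which are not counts, so the test was limma 3.58.1 in R 4.3.3 (lmFit, eBayes with trend), in place of the DESeq2 of the authors. Genes with a mean of at least 5 normalized counts were tested. The quantile step hides depth and global shifts, and turns the most abundant genes into ranks. The split was fitted on the 8 vehicle libraries with genotype as a covariate, then per genotype and as an interaction; the cortisol libraries were fitted alike. The fitting was tested on simulated data.

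Members and gene lists were chosen with earlier results of these data known, and 7 of 41 lists were drawn up after the differences had been seen. A perlecan gene caught by its letters was taken out of the chaperone list. Lists are described by counts and medians, without a set test. The genes named are the 10 largest rises and falls among called genes whose libraries are apart within each genotype, up to 4 called members of each list in its leading direction and up to 2 in the other, the 2 most abundant of lists without a call, and the genes that the study names. One gene that this rule names is not reported here. Where values per library are given, most genes were picked from these for their stable calls. Such values are also given for ascl1b, HSPA8, NR3C1 and FKBP5, which have no stable call. For col1a1a and ACTA1 they are given because the test between genotypes called them. Symbols came from a table that matched 21794 gene IDs and often prints the form of the human gene. Length and GC content were not tested, since no reference used here gave them for the annotation of the files. An exact permutation within genotypes cannot go below a two-sided p of 0.0556, so none was run. Same-numbered VBA- and VBA+ vehicle libraries deviated from their group means together (r = 0.212 to 0.309), but not once the means of replicates 3 and 4 and of 1 and 2 were removed (r = -0.2 and -0.066), so that the pairing rests on the split itself.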

Additional observations from a re-analysis of the deposited data

Results flagged for a closer look

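In 126 groups of 4 libraries (replicates 3 and 4, or 1 and 2, over both genotypes) the 2 principal components, the 20 genes with the largest changes and the 41 lists were searched for a library far from the other 3. There were 8 such cases, and chance alone gives about 1 in 20. Among replicates 3 and 4, alp3 was high at 7.33 in VBA- replicate 4, GGACT low at 5.56 in VBA- replicate 3, NYX high at 6.29 in VBA+ replicate 3, the presynaptic list low at a mean level of 7.22 in VBA- replicate 3 and the replication list low at 7.21 in VBA- replicate 4. Among replicates 1 and 2, alp3 was low at 4.18 in VBA+ replicate 2, the lens list high at 9.74 in VBA- replicate 1 and the Notch and proneural list low at 7.41 in VBA- replicate 2.

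The split differed between VBA- and VBA+ vehicle, in a test of the difference itself, for 2 genes, by 1.31 for col1a1a and -1.31 for ACTA1.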

How the results depend on the processing

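For the vehicle split, 605 genes were called as reported, 123 with a limit of 1 on the absolute difference, 79 without a trend in the prior variance, 0 with all 16 libraries in the fit, 113 without the genotype term and 282 to 689 without 1 library; without VBA- replicates 1 and 4 together, chosen after seeing the data, it was 363. In the fit of all 16 libraries the genotypes of a treatment shared a split term, so their opposite differences in cortisol entered the error. With replicate number as a random block the count was 827, including all 605. The split lies between replicate numbers, so that count depends on the correlation estimated within them and adds no support for the calls. For VBA- alone, 169 became 24 without the filter on low values, 270 with the filter at 75 before adjustment, 66 with the limit of 1, 296 under trimmed-mean scaling, 0 without the trend, 73 with library weights, 706 with all 16 libraries and 7 to 1008 without 1 library. For VBA+ alone, 149 became 6 without the filter, 94 with the limit of 1, 0 without the trend, 257 with library weights, 285 with all 16 libraries and 4 to 213 without 1 library. The 2 genes of the interaction became 0 without the filter or the trend, 1 with all 16 libraries and 0 to 9 without 1 library. The cortisol split had 0 calls, against 6076 within VBA- and 639 within VBA+, chosen after seeing the data. The share of variance on the first component was 29.9% to 39.4% without 1 library. No named gene that was called changed sign in any alternative, and 42 of the 93 kept the call in every fit without 1 library. Median centring changed nothing, as quantile normalization fixes the medians. The causes of these changes were not tested. The unknown depth limits what low values can show, and rank steps what the highest can. GC content and length could not be examined.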
